A study of Mus musculus with 6 samples.

Results

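Connexins are membrane proteins that assemble into gap junctions, the channels through which ions and small molecules pass directly from cell to cell. In the heart they carry the electrical impulse between cardiomyocytes, and in the endocardium and vessel wall they couple endothelial cells. Channels built from different connexins differ in conductance, so the mix of connexins a tissue makes is as much a part of its electrical character as their amount. The 6 genes followed here were taken by symbol: Gja1, Gja3, Gja4, Gja5, Gjc1 and Gjb2. Of these, 4 matched a row among the 15330 genes of the table: Gja1, which encodes connexin 43, the main connexin of working myocardium and also of many other cell types; Gja5, which encodes connexin 40 of the atria, the trabecular and conducting myocardium and arterial endothelium; Gjc1, which encodes connexin 45, the first connexin of the early heart; and Gja4, which encodes connexin 37 of endothelium. Gja3, known best from the eye lens, and Gjb2, known best from epithelia and the inner ear, matched no row and are not analysed here.

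Bulk RNA-seq was made from micro-dissected, stage-matched hearts of mouse embryos at embryonic day 9.5. Of the 6 libraries, 3 came from wild-type embryos and 3 from embryos with both copies of the H2-URI deleted (H2-URI d/d), a 373 kb interval ahead of Hand2 that was removed by CRISPR-Cas9. Each group held 2 libraries labelled female (replicates 1 and 2) and 1 labelled male (replicate 3), and all carried batch number 1. The labels do not say how many hearts or founder lines stand behind a library, and p-values therefore reflect only how far these libraries differ among themselves, which may be technical.

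The libraries held 25583210 to 32043595 reads, and 1 read was worth 0.890 to 1.14 normalized counts, the unit used throughout. Hand2, the gene whose upstream interval was deleted, had 3789 to 4407 normalized counts in the wild-type and 1025 to 1163 in the deletion libraries, with no overlap. Columns were given to samples by the code in each sample's title. For 4 of the 6 columns the deposited file of that name is recorded under a sample of the opposite genotype, and with groups taken from that record no gene passed in either direction in limma, while 414 had an unadjusted p under 0.05. The codes and that record give the same group for replicate 3 of each genotype. Cardiomyocyte marker genes were abundant in every library (8 of 8 measured, summed level 759662 to 894447) and all 8 endothelial and endocardial markers were measured too. Of the 4 macrophage markers only Csf1r was measured, at 30.6 to 65.8 normalized counts.

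None of the 4 measured connexin genes passed the test between deletion and wild-type hearts, which was limma across all genes with a Benjamini-Hochberg adjusted p under 0.05. At an unadjusted p under 0.05 there was 1, Gja4, against 3281 of all 15330 genes. Over all genes 3.05% passed, 237 higher and 230 lower in the deletion. The split was 393 higher and 209 lower with libraries scaled to equal non-haemoglobin totals, and 218 higher and 312 lower once each library's dependence on transcript length and GC was subtracted. Gja4 was the connexin with the largest difference, at 151% of the wild-type mean. Gja5 stood at 83.6% of the wild-type mean, Gja1 at 106% and Gjc1 at 102%. The groups did not overlap for Gja4, which had all 3 deletion libraries above all 3 wild-type ones, and they overlapped for the other 3. Over all genes the groups did not overlap for 27.4%, and for 12.9% every deletion library was the higher one, so 1 gene in 4 is close to that background.

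**Figure D1:**
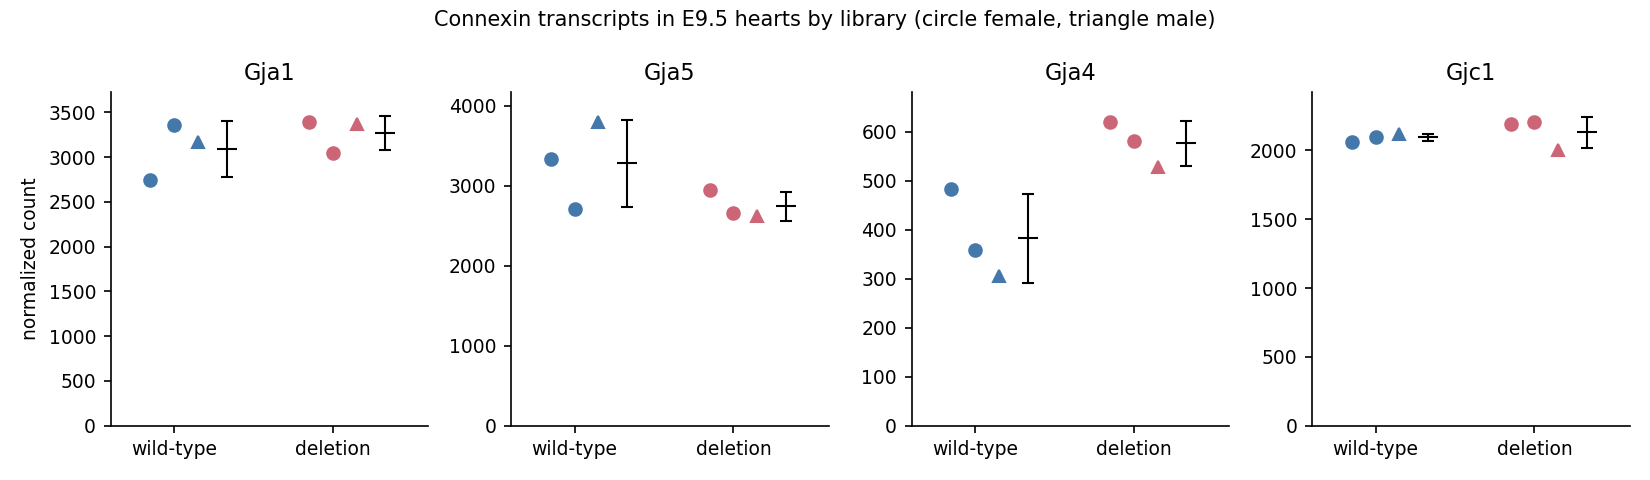
Normalized counts of the 4 measured connexin genes in each of the 6 heart libraries, with circles for female and triangles for male libraries and bars for the mean ± SD (n = 3 per group). All 3 deletion libraries lie above the wild-type libraries for Gja4 (528 to 620 against 306 to 484), and the groups overlap for Gja1, Gja5 and Gjc1.

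The stretches of DNA just before the start sites are given here for 3 of these genes, all those for which an entry was found. Promoters come from RefSeq on GRCm38.p6, an older build than the GRCm39 the submitters named. Each is 250 bases long, written along the gene's strand, and ends at the base before the annotated start. Only 1 start per gene was used. The annotation that gave transcript lengths lists 8 transcripts for Gja1, 3 for Gja5 and 1 for Gja4, and windows before any other start were not searched. An entry was found for 3 of the 4 measured genes, not for Gjc1. Capitals mark matches on either strand to 4 short motifs. They are the E-box CANNTG, which basic helix-loop-helix factors such as Hand2 read, the T-box letters GGTGTG, the letters AAGTG read by NK2 factors such as Nkx2-5, and the letters AGATAA read by GATA factors. No match overlaps another.
Gja4 (chr4:127314040-127314289, minus strand): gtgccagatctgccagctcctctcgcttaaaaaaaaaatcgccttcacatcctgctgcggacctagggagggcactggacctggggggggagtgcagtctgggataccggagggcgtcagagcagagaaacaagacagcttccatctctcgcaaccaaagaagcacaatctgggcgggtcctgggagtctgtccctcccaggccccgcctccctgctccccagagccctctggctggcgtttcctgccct
Gja5 (chr3:97032152-97032401, plus strand): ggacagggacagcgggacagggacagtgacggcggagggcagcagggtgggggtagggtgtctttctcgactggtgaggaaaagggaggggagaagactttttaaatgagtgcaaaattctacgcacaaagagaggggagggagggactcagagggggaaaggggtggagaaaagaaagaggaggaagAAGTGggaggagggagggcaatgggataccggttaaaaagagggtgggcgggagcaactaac
Gja1 (chr10:56377050-56377299, plus strand): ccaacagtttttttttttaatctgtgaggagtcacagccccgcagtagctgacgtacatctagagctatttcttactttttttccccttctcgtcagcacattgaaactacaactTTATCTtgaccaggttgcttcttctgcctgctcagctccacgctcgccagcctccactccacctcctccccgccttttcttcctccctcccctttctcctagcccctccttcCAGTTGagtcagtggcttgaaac

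The Gja4 window held no match to any of the 4 motifs. The Gja5 window held 1, an NK2 match on the gene's own strand 62 to 58 bases before the start. The Gja1 window held a GATA match on the opposite strand 135 to 130 bases before the start and an E-box match 23 to 18 bases before it. Among 32817 promoter windows of the same length, 66.2% held an E-box match, 16.3% a T-box match, 40.7% an NK2 match and 9.99% a GATA match. Such matches describe the letters of these windows and no binding was measured.

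Gja4, which encodes the connexin that couples endothelial cells of arteries and endocardium, was measured at 484, 359 and 306 normalized counts in the wild-type libraries, in the order of replicates 1 to 3. The deletion libraries, given in that order here and below, held 620, 582 and 528. The highest wild-type library, replicate 1, lay closer to the lowest deletion library than to either of the other wild-type libraries. The means were 383 ± 91.2 and 577 ± 45.99 (SD, n = 3). On the log2 scale the deletion mean exceeded the wild-type mean by 0.61 (SE 0.15, with a 95% interval of 0.27 to 0.96), and limma's adjusted p of 0.0629 missed the threshold. An exact two-sided permutation test gave p = 0.1, the smallest that 3 against 3 libraries allow. Without wild-type replicate 1 the log2 fold change was 0.79 (adjusted p = 0.00644, limma), and with each of the other libraries left out it did not pass, with adjusted p up to 0.215. It also passed with libraries scaled to equal non-haemoglobin totals (0.66, adjusted p = 0.0477, limma) and with the length and GC dependence subtracted (0.58, adjusted p = 0.0281, limma). The equal totals raised the log2 fold change of every measured connexin, that of Gjc1 from 0.024 to 0.070. Over all genes, haemoglobin included, the deposited values summed to 2.85e+07 to 2.93e+07 in wild-type and 2.80e+07 to 2.82e+07 in deletion libraries. The 6 primitive erythroid markers, of which none passed in limma or had an unadjusted p under 0.05, summed to 117087 to 341149 normalized counts in wild-type and 82732 to 439580 in deletion libraries, the lowest in deletion replicate 1 and the highest in deletion replicate 3.

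The reads behind Gja4 numbered 334 to 627 per library, which gives a counting error of at most 5.47%. The SD between wild-type libraries was 23.8% of their mean and that between deletion libraries 7.98%. In both groups the male library was the lowest. The difference between the genotypes was 0.53 in female and 0.79 in male libraries on the log2 scale, with 1 male library per genotype, and the test of that difference gave an adjusted p of 0.999 in limma.

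Gja5, which encodes the fast-conducting connexin of atria and trabeculae and is also made in arterial endothelium, was measured at 3340, 2710 and 3795 normalized counts in the wild-type and at 2954, 2655 and 2625 in the deletion libraries. Deletion replicate 1 stood above wild-type replicate 2, so the groups overlapped. The means were 3282 ± 545 and 2745 ± 182 (SD, n = 3). Its log2 fold change, deletion minus wild-type, came to −0.25 (SE 0.11, with a 95% interval of −0.50 to 0.0053; limma's adjusted p = 0.243), and the exact permutation test gave p = 0.2. The value rested on the wild-type libraries, whose SD was 16.6% of their mean, against 6.63% in the deletion. Without wild-type replicate 2, the lowest of them, the log2 fold change was −0.38 and passed (adjusted p = 0.0330, limma). Without wild-type replicate 3, the highest, it was −0.13 (adjusted p = 0.542, limma). In the 4 female libraries alone it was −0.10 (adjusted p = 0.753, limma), against −0.53 between the 2 male libraries, 1 per genotype. The test of the difference between the sexes, −0.43 on the log2 scale, did not pass (adjusted p = 0.999 in limma, unadjusted p = 0.0789).

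Gja1, which encodes the connexin that later dominates working ventricular muscle, was measured at 2742, 3354 and 3171 normalized counts without the deletion and at 3388, 3045 and 3372 with it. The libraries of both groups were interleaved, with wild-type replicate 1 the lowest of the 6. The means were 3089 ± 314 and 3268 ± 194 (SD, n = 3), 0.08 apart on the log2 scale (SE 0.08; limma's adjusted p = 0.608). Without wild-type replicate 1 they were 0.0013 apart (adjusted p = 0.993, limma). The 95% interval of the fold ran from 0.930 to 1.21, so a change of 1.5-fold lies outside it in either direction.

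Gjc1, which encodes the connexin needed for impulse spread in the earliest heart, was the steadiest of the 4, with 2064, 2099 and 2120 normalized counts in the wild-type libraries against 2189, 2204 and 2001 in those with the deletion. The deletion libraries included both the highest and the lowest value. The wild-type SD was 1.35% of the mean, below the counting error of 2.35% at its lowest depth. On the log2 scale the groups were 0.02 apart (SE 0.06; limma's adjusted p = 0.865), and the 95% interval of the fold, 0.921 to 1.12, was the narrowest among the 4 genes.

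**Figure D2:**
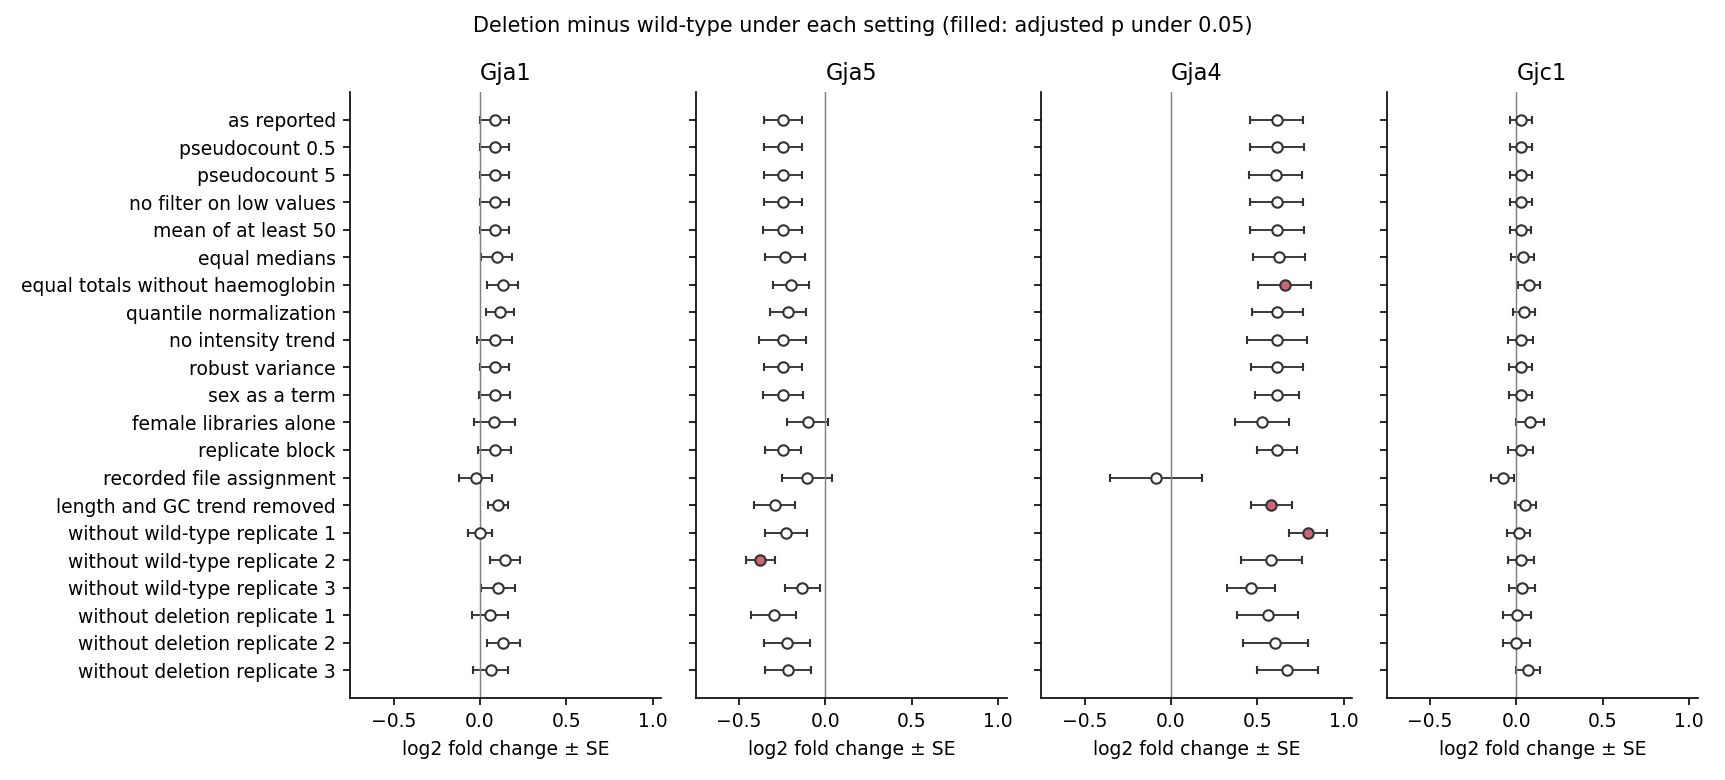
Log2 fold change (deletion minus wild-type, horizontal axis, ± SE) of each measured connexin gene in the fit reported and under each alternative setting, with filled points where limma's adjusted p was under 0.05. Gja4 lies at 0.46 to 0.79 with any 1 library left out and passes in 3 settings, Gja5 passes in 1, and Gja1 and Gjc1 pass in none.

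Levels of different genes were compared per kilobase of transcript. With the longest annotated transcript as length, wild-type levels were 895 ± 149 normalized counts per kb for Gja5, 794 ± 80.7 for Gja1, 614 ± 8.31 for Gjc1 and 227 ± 54.1 for Gja4 (SD, n = 3). In the deletion they were 748 ± 49.6, 840 ± 49.8, 625 ± 33.1 and 342 ± 27.3 in the same order. Gja5 and Gja1 did not differ beyond their spread over the 6 libraries, with 716 to 1035 against 705 to 871. Gjc1 lay below both, at 586 to 646, and Gja4 lay below Gjc1, at 181 to 368. The order of the upper 3 depends on the length used. With the median transcript length Gja1 came first and Gja5 after Gjc1, while Gja4 was the lowest of the 4 with either length.

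As shares of the 4 genes' summed level per kb, which the longest transcript length also sets, Gja5 made up 36.3, 30.4 and 39.0% of the wild-type libraries' sums and 30.0, 29.0 and 28.8% of the deletion libraries' sums. Gja4 made up 11.4, 8.78 and 6.84% against 13.7, 13.8 and 12.6%. For both genes the shares of the groups did not overlap, with that of Gja5 the larger in wild-type and that of Gja4 the larger in deletion hearts. With the median transcript length the shares of Gja5 overlapped (21.2% in wild-type replicate 2 against 21.6% in deletion replicate 1), and those of Gja4 did not. With the longest, Gja1 (28.1 to 35.5%) and Gjc1 (23.4 to 25.9%) had overlapping shares. The shares of a library add up to the whole, so a larger share for Gja4 lowers the others and the separations are not independent. Gja5's own normalized counts overlapped, and no such share was computed over all genes.

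**Figure D3:**
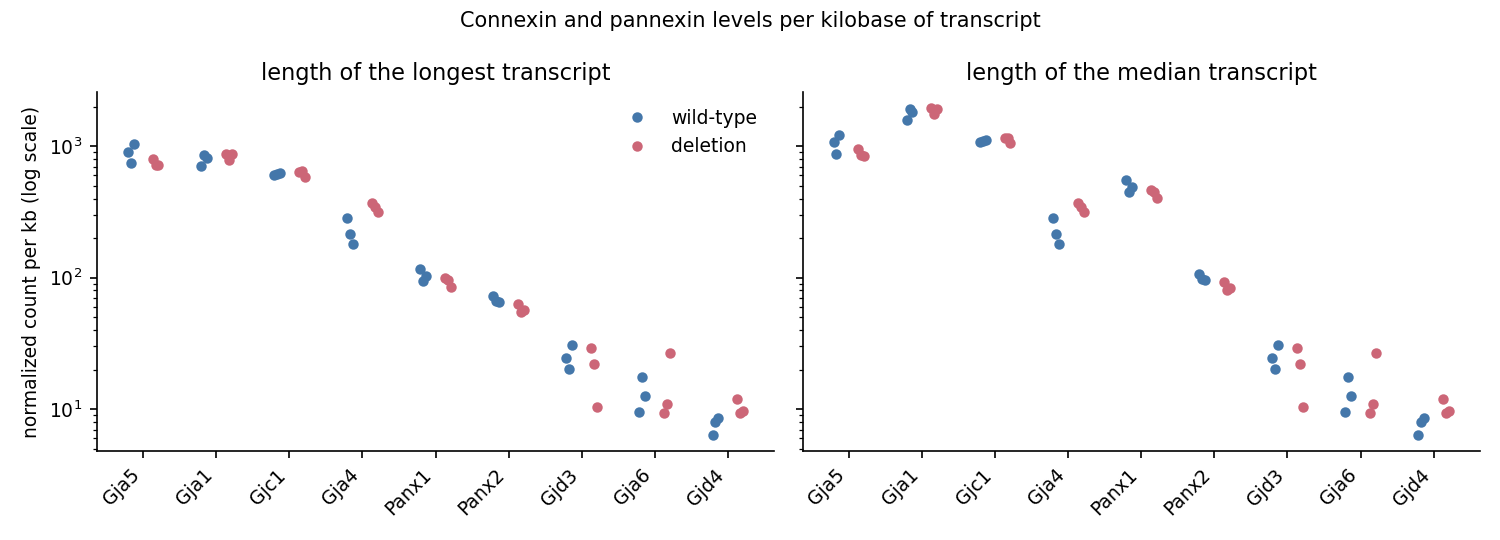
Normalized counts per kilobase (log axis) of the 4 measured members and 5 further connexin and pannexin genes in each library, wild-type in blue and deletion in red, with the longest (left) or median (right) transcript as length. With the longest transcript Gja5, Gja1 and Gjc1 lie within 586 to 1035 per kb, above Gja4. With the median, Gja1 lies apart at 1570.6 to 1940.5, and Panx1 (404 to 553) also lies above Gja4 (181 to 368). Gjd3, Gja6 and Gjd4 lie below 31 per kb with either length.

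Ratios within a library do not depend on how libraries were scaled, and 6 pairs of members were compared this way. The ratio of Gja4 to Gja5 was 0.145, 0.133 and 0.0805 in the wild-type libraries, against 0.210, 0.219 and 0.201 with the deletion. Every deletion library was above every wild-type one, with a difference of 0.86 on the log2 scale. The ratio of Gja4 to Gjc1 also did not overlap, at 0.144 to 0.234 against 0.264 to 0.283. The exact permutation p was 0.1 for both, the smallest possible, and 0.3 adjusted over the 6 pairs. Among all other genes, the ratio to Gja5 did not overlap for 19.7%, that to Gjc1 for 23.9%, that to Gja1 for 18.9% and that to Gja4 for 60.9%. The other 4 pairs overlapped. Gja5 to Gjc1, which compares the fast-conducting with the early connexin, averaged 1.57 ± 0.254 without and 1.29 ± 0.0754 with the deletion (SD, n = 3; exact permutation p = 0.3).

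In bulk hearts, fewer cells of a type and less RNA per cell cannot be told apart. The endothelial and endocardial marker list, 8 of 8 genes measured, summed to 21941 to 23423 normalized counts in wild-type and 22638 to 23424 in deletion libraries. Of its genes Kdr, the main VEGF receptor, rose (log2 fold change 0.33, adjusted p = 0.0317, limma) and the angiopoietin receptor gene Tek fell (−0.35, adjusted p = 0.0178, limma). Per 1000 summed counts of this list Gja4 averaged 16.7 ± 3.86 without and 25.0 ± 1.58 with the deletion (SD, n = 3), and the groups did not overlap. The arterial list, 7 of 7 measured, summed to 15069 to 16087 in wild-type and 17474 to 17810 in deletion libraries, without overlap. None of the 7 passed in limma and 6 had an unadjusted p under 0.05, against 3281 of all 15330 genes. The list's median log2 fold change was 0.28, against −0.0073 over all genes tested. The nearest to the threshold were Dll4, the arterial Notch ligand (log2 fold change 0.75, adjusted p = 0.0625, limma), and the transcription factor gene Sox17 (0.66, adjusted p = 0.0787, limma). Per 1000 counts of the arterial list Gja4 was 19.0 to 30.8 in wild-type and 30.2 to 35.3 in deletion libraries, which overlap. Most of that sum came from the list's most abundant genes, with wild-type means of 3769 to 5636 and log2 fold changes of 0.025 to 0.19. Dll4 and Sox17 had wild-type means of only 345 and 113. The part of arterial endothelium in the Gja4 values was not tested.

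None of the 8 cardiomyocyte markers passed in limma (median log2 fold change 0.08), while 3 had an unadjusted p under 0.05, against 3281 of all 15330 genes. The 8 markers summed to 759662 to 850036 normalized counts in wild-type and 815334 to 894447 in deletion libraries. Per 1000 of these counts Gja5 stood at 3.57 to 4.46 in wild-type and 2.97 to 3.35 in deletion libraries, without overlap. Of 12 such ratios, from 4 genes and 3 lists, 6 did not overlap, and each of these had an exact permutation p of 0.1 and an adjusted p of 0.2 over the 12. Among all genes outside each list, the ratio to the same summed markers did not overlap for 28.4% with the cardiomyocyte, 26.8% with the endothelial and endocardial and 43.5% with the arterial list. Of the 6 ratios, 3 were to the cardiomyocyte, 1 to the endothelial and endocardial and 2 to the arterial list, and they included Gjc1 per 1000 cardiomyocyte counts, where the groups were close, at 2.49 to 2.76 against 2.45 to 2.48. Markers of further cell types were followed in the same hearts. In the list of cushion and pharyngeal mesenchyme 4 of 6 fell, with sums of 8013 to 10801 in wild-type and 3749 to 4985 in deletion libraries. In the foregut and pharyngeal epithelium list, 9 of 10 measured, 1 gene, Krt19, rose (log2 fold change 0.86, adjusted p = 1.52e-04, limma), with sums of 5709 to 7712 against 7687 to 8118. Wild-type replicate 1, the wild-type library with the most Gja4, had the highest of the wild-type epithelium sums. None of 6 epicardial markers passed in limma, with sums of 1459 to 2303 against 2089 to 3495. Of these 6, 3 had an unadjusted p under 0.05, beside the 3281 of all 15330 genes. The part of these cell types in the connexin values was not tested.

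**Figure D4:**
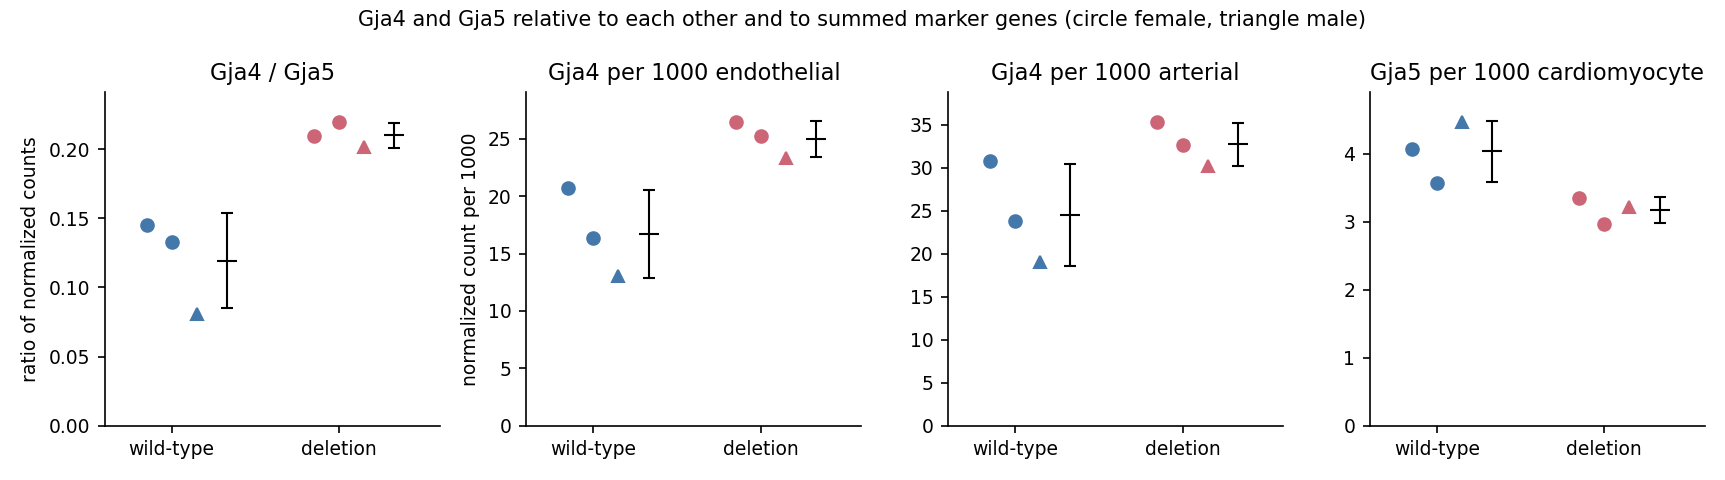
Gja4 relative to Gja5, to summed endothelial and endocardial markers and to summed arterial markers, and Gja5 relative to summed cardiomyocyte markers, in each library (circles female, triangles male, bars mean ± SD, n = 3; marker panels in normalized counts per 1000). The groups separate in every panel but that of Gja4 per 1000 arterial counts, where wild-type replicate 1 at 30.8 lies above deletion replicate 3 at 30.2.

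Of 17 further connexin and pannexin genes, 5 were measured and none passed in limma, nor did any have an unadjusted p under 0.05. The pannexins, relatives of connexins in shape that form channels in single membranes, were the most abundant. Panx1 had 544 to 672 normalized counts in wild-type and 490 to 569 in deletion libraries (log2 fold change −0.17, adjusted p = 0.368, limma). Panx2 had 221 to 247 in wild-type and 186 to 215 in deletion libraries, without overlap (−0.22, adjusted p = 0.304, limma). The connexin genes Gjd3, Gja6 and Gjd4 were near the lower end of the table, at 8.64 to 54.0 normalized counts in any library, and their fold changes of −0.37, 0.12 and 0.42 on the log2 scale did not pass. Gjd4 too did not overlap, at 17.0 to 22.9 in wild-type against 25.1 to 31.7 in deletion libraries. Of the 5 genes 1 was thus lower and 1 higher without overlap, against 27.4% of all genes in either direction.

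A list of 19 genes held transcription factors known to act on connexin genes and also the receptor gene Notch1. All were measured, and 1 rose and 1 fell. At an unadjusted p under 0.05 there were 13, of which 8 were higher and 5 lower with the deletion, against the 3281 of 15330 given above for all genes. Tbx3, a repressor of Gja5 and Gja1 in conduction tissue, rose from 893, 920 and 889 to 1268, 1292 and 1076 normalized counts (log2 fold change 0.42, adjusted p = 0.0303, limma). The 1 that fell was Hand2, whose own upstream interval was deleted (log2 fold change −1.85, adjusted p = 1.51e-05, limma). Hand2 and Notch1 are both counted among the 5 lower genes, and Hand2 sets the low end of the list's range. The list ran from −1.85 to 0.66 on the log2 scale, with a median of 0.07, and its members moved in both directions.

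The 3 genes whose profile over the 6 libraries lay nearest to that of Gja4, by the root mean square difference of centred log2 values among 11693 genes with a mean of at least 50, were L1td1 at 0.039, Il17rd at 0.0725 and Ptges at 0.0818. L1td1, which encodes an RNA-binding protein, was measured at 234, 173 and 154 normalized counts without and at 318, 280 and 252 with the deletion. In each group it followed the same order of libraries as Gja4. Il17rd, an inhibitor of FGF signalling, rose by 0.63 on the log2 scale (limma's adjusted p = 0.0280), and Ptges, a prostaglandin E synthase, by 0.66 (0.0418). L1td1 had 0.61 and did not pass (adjusted p = 0.0782, limma). The likeness rests on 6 libraries and was sought among many genes. Since the 3 were chosen by these same values, their rises and a similar order of libraries follow from the choice and add no support.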

How the data were processed

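Per the labels' protocols, a stranded TruSeq mRNA kit turned 300 ng of total RNA into each library, which was sequenced paired-end. The submitters' processing notes name STAR 2.7.9a, featureCounts, Subread 2.0.1, DESeq2 1.30.1 and the build GRCm39. No annotation, strand setting or gene filter is stated (not given in the sources used here). Per the file headers and names the deposited unit is the normalized count. It is a signal in which the authors divided each gene's reads by the size factor of its library. All values were whole multiples of 1 read within 0.01, which gave the depth. The table has 6 columns, and 5 further files repeat 1 each.

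Log2(normalized count + 1) of all 15330 genes entered limma 3.58.1 under R 4.3.3, with an intensity trend, in a two-sided test with Benjamini-Hochberg adjustment and 0.05 as threshold. A minimum mean of 10 removed no gene. Fold changes are differences of mean log2 values, and the pseudocount understates those of low genes. The procedure was tested on simulated data, and the outcome of that test is not given here. Exact permutation tests used scipy 1.17.1. Transcript lengths and GC content came from GENCODE M21, for 96.9% of genes. The members and lists were chosen with earlier results of these data known. The text names all measured members. From each list it names up to 4 genes past the threshold or, where none passed, up to 2 by smallest p, as far as the list bears on a member. It also names the 3 nearest profiles to the member of smallest p. A further list of genes is not reported here.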

Additional observations from a re-analysis of the deposited data

Results flagged for a closer look

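For Gjc1 both female deletion libraries were above both female wild-type libraries (2189 and 2204 against 2064 and 2099 normalized counts), and the male deletion library was below the male wild-type one (2001 against 2120). The deletion effect in the male libraries minus that in the female ones was −0.161 on the log2 scale (SE 0.14). The test of this difference did not pass (adjusted p = 0.999 in limma, unadjusted p = 0.285), and it has 1 male library per genotype.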

How the results depend on the processing

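Each member was refitted under 20 alternatives. Gja5 kept its direction in 20, Gja4 and Gja1 in 19 and Gjc1 in 18. The 20 include the recorded file assignment, which regroups libraries and was the only setting that reversed Gja4 and Gja1. The number of members called, 0 as reported, was 1 with equal non-haemoglobin totals and 1 with the length and GC dependence subtracted, both times Gja4 (0.6586 and 0.5809), and 0 to 1 with a library left out. With each library left out, log2 fold changes ran from 0.46 to 0.79 for Gja4, −0.38 to −0.13 for Gja5, 0.0013 to 0.15 for Gja1 and −0.0007056 to 0.069 for Gjc1. Under the recorded file assignment Gja4 had −0.0881, Gja1 −0.0257 and Gjc1 −0.0794, and 0 genes were called lower and 0 higher over all genes. Genes called lower and higher numbered 230 and 237 as reported, 73 and 73 without an intensity trend, 23 and 12 in the female libraries, and 393 higher with equal totals; with a library left out they ran from 61 to 695 lower and from 42 to 466 higher, the most without wild-type replicate 2. A fit on fewer samples has less power, and the cause of the other changes was not tested. With a replicate block the counts were 110 and 96, and Gja4 had an adjusted p of 0.0535 in limma. Same-numbered libraries did not deviate together (correlations −0.0347, −0.120 and −0.137, against −0.165 to 0.252 for the other pairs). By the labels they share a number and a sex, and so few libraries cannot show whether they share anything else. The pseudocount, the filter, equal medians, quantile normalization, the robust variance and sex as a term left every member's direction and side of the threshold as reported. The planned count-model alternatives were not run. Gja4 had the fewest reads and also the widest interval of the 4. Its counting error was at most 5.47%, and the SD between wild-type libraries was 23.8% of their mean. The cause of the width was not tested.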
